A study of Sus scrofa with 4 samples.

Results

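Pancreatic ducts carry digestive enzymes to the gut in an alkaline fluid, and the duct epithelium makes the bicarbonate of that fluid. The hormone secretin binds its receptor SCTR on the basal side of a duct cell and raises cyclic AMP, which opens the apical anion channel CFTR, the gene mutated in cystic fibrosis. The sodium bicarbonate cotransporter SLC4A4 (NBCe1) brings bicarbonate into the cell from the blood side. Potassium channels hold the membrane potential that drives anion exit. KCNJ16 encodes an inwardly rectifying subunit that joins KCNJ10 or KCNJ15 in epithelia, and KCNH8 encodes a voltage-gated channel of the ELK family, best known from neurons.

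These 5 genes, out of 30282 genes counted, were followed in droplet-based single-cell RNA sequencing of pig cells. All features that carried the symbol of a gene, including extensions of its 3' end, were summed. Porcine pancreatic ductal organoids (PPDO) are epithelial cultures grown from hand-picked pancreatic ducts in Cultrex, a basement membrane extract, and 2 libraries of them were sequenced, called PPDO 1 and 2. The other 2 libraries hold cells of the dissociated organ, called primary pancreas 1 and 2. By the methods of the study, primary pancreas 1 came from ductal fragments isolated by hand from a wild-type pig, and primary pancreas 2 from a pig that carries enhanced green fluorescent protein under the porcine insulin promoter (INS-eGFP). From the second animal, cells sorted with the lectin DBA, which binds duct cells, and eGFP-positive cells were pooled with the whole suspension. Both animals were German landrace pigs of the same postnatal age, and they were processed on different days. The PPDO medium held WNT3A, R-spondin 1, noggin, EGF, FGF10 and a TGF-beta receptor inhibitor. The PPDO lines came from pigs of different age and differed in passage, which the labels do not assign to PPDO 1 or 2. By the paper, most cells of these lines had by then changed to the less mature duct state of later passages. Organoid culture and group coincide, so that culture, passage, medium and age cannot be told apart in any comparison of PPDO with primary cells.

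On the pig assembly Sscrofa11.1, one of the builds that the submitters' processing notes name, RefSeq places the 5 protein-coding genes on 5 chromosomes. CFTR (ENSSSCG00000016626) lies at chr18:28627717-28818209 and SCTR (ENSSSCG00000029536) at chr15:31707755-31782193. SLC4A4 (ENSSSCG00000008943) lies at chr8:67768955-68177213, KCNJ16 (ENSSSCG00000034358) at chr12:10393172-10538423 and KCNH8 (ENSSSCG00000011204) at chr13:6104382-6533505. At most 2.68% of the unique molecular identifiers (UMIs, counted molecules) of any member in duct cells or PPDO came from the 3' extensions.

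Cells kept after filtering numbered 8885 and 7337 in PPDO 1 and 2 and 5671 and 4261 in primary pancreas 1 and 2. Their libraries held between 87043513 and 366263520 UMIs, and between 10 and 23 cell barcodes were shared by any 2 libraries. Clusters of primary cells, made without the members, without other duct secretion genes and without duct markers, were named by marker lists. Ductal-like cells numbered 2186 and 1188, at a median of 17886 and 20559 UMIs per cell, against 34176 and 34459 UMIs per cell in PPDO. The 9 matched duct markers summed to 8112 and 7547 CPM (UMIs per 1000000 UMIs of the cells summed) in ductal-like cells and to 760.1 and 806.8 CPM in PPDO, with none at 0. KRT7 was the largest part in PPDO, at 388.6 and 384.2 CPM. KRT23 went the other way, with 120.1 and 194.2 CPM in PPDO against 1.30 and 2.64 CPM in ductal-like cells. ONECUT1 (0.209 and 0.221 CPM) and PKHD1 (0.585 and 0.549 CPM) were near 0 in PPDO. The 6 matched basal markers, KRT5 and TP63 among them, summed to 8844 and 11512 CPM in PPDO and to 161.9 and 117.1 CPM in ductal-like cells. In ductal-like cells ITGA6 was the largest part, at 142.8 and 94.1 CPM. KRT5 (0.343 and 0.276 CPM) and TP63 (0.274 and 0.513 CPM) were near 0 there. The ductal-like cells of primary pancreas 2 also held 8033 CPM of endocrine marker RNA, against 188.7 CPM in primary pancreas 1, and the part of free RNA in any value below was not tested. In these class sums, fewer cells with a gene and less RNA per cell cannot be told apart, which is why shares of cells are given too.

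Primary duct cells held all 5 genes, and SLC4A4 was by far the most abundant of them. Because the 3' kit is meant to count each molecule at its end, CPM was not divided by gene length, and an effect of gene length was not tested. SLC4A4 had 22274 and 25902 CPM in primary pancreas 1 and 2, a mean of 2.41% of all their UMIs. CFTR had 942.7 and 794.6 CPM, and SCTR had 577 and 964.2 CPM. KCNH8 had 473.2 and 534.4 CPM, close in both libraries, while KCNJ16 had 85.8 and 177.3 CPM. SCTR and KCNJ16 were thus higher in primary pancreas 2, and CFTR was slightly higher in primary pancreas 1. With 1 library per animal and preparation, these gaps between libraries were not tested.

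Single duct cells varied widely around these levels. The median ductal-like cell held 372 and 503 UMIs of SLC4A4 in primary pancreas 1 and 2, and the 10th percentile was 55 and 237.7 UMIs. For CFTR the median cell held 15 and 14 UMIs, with a highest cell of 123 and 94 UMIs. The median was 9 and 18.5 UMIs for SCTR, 7 and 9 UMIs for KCNH8 and only 1 and 3 UMIs for KCNJ16, the gene nearest to the detection limit. All 5 genes were found together in 58.8% of 2186 and 81.2% of 1188 ductal-like cells, and none lacked all 5. Thinned to 3000 UMIs per cell (a random draw of 3000 UMIs, leaving out shallower cells), the share with all 5 was 10.2% of 2074 and 19.7% of 1188 cells.

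The ductal-like class held 6 clusters, of which 5 came from 1 library each. Their sizes were 1328, 429 and 426 cells in primary pancreas 1 (clusters 0, 7 and 8) and 1108 and 64 cells in primary pancreas 2 (clusters 1 and 23). Across these 5 clusters CFTR ranged from 795.2 to 1145 CPM, SLC4A4 from 20750 to 37016 CPM and KCNH8 from 459.8 to 820.7 CPM. The large cluster 0, led by OSGIN1 and EREG, had the lowest SCTR of the 5, at 513.3 CPM, and the lowest KCNJ16, at 77.6 CPM. Within primary pancreas 1 alone, cluster 8 had 802.8 CPM of SCTR and 118.1 CPM of KCNJ16. These clusters were separated by the expression of other genes of the same cells, and no test was made between them.

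Cluster 24, with 3 and 16 cells of primary pancreas 1 and 2 and led by TCN1, TM4SF20, ONECUT2 and LGR5, kept SCTR but little SLC4A4. SCTR had 861.7 CPM (exact Poisson interval 659.1 to 1107) and 730.2 CPM (644.3 to 824.3), within the range of the other duct clusters, whereas SLC4A4 had 1285 CPM (1035 to 1578) and 1088 CPM (982.8 to 1202). CFTR was also low there, at 141.3 CPM (67.7 to 259.8) and 165.1 CPM (125.6 to 212.9), and KCNH8 had 98.9 and 327.3 CPM. KCNJ16, with 84.8 and 44.8 CPM, rested on 6 and 16 UMIs. In primary pancreas 2, 15 of the 16 cells held SCTR and 15 held SLC4A4, and the highest cell had 38 of 261 SCTR UMIs and 119 of 389 SLC4A4 UMIs. In primary pancreas 1 single cells had 47 of 61 SCTR UMIs and 84 of 91 SLC4A4 UMIs, so the values there rest on essentially 1 cell. The intervals cover counting error only.

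**Figure D1:**
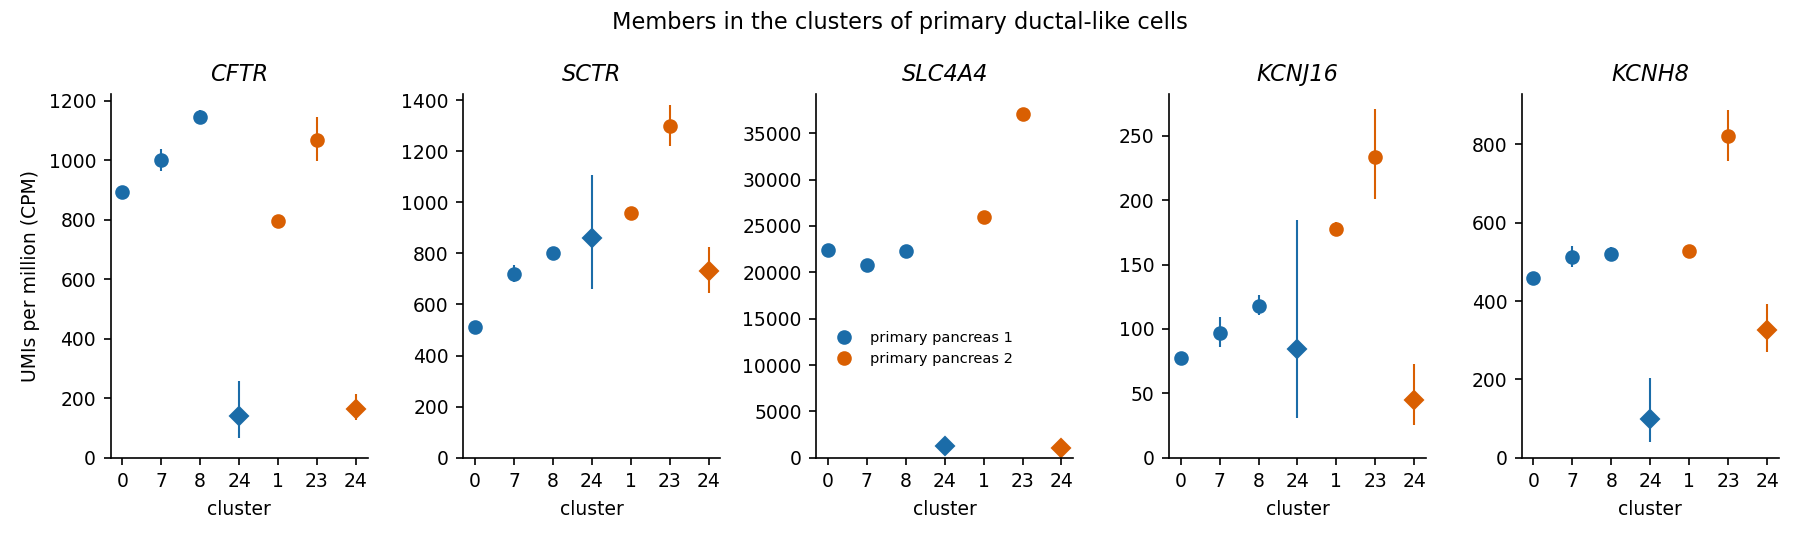
Level of each gene, in CPM (linear axes that start at 0), in the clusters of ductal-like cells, with primary pancreas 1 in blue and primary pancreas 2 in orange; bars are exact Poisson 95% intervals. Diamonds mark cluster 24 (3 and 16 cells), which sits near the bottom for SLC4A4 and CFTR and within the range of the other clusters for SCTR.

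To place the genes among the cell types of the organ, sums of ductal-like cells were compared with sums of 5 other classes that had at least 20 cells in both libraries. These were acinar-like, endocrine-like, endothelial-like, stellate-like and immune-like cells. All 5 genes were higher in ductal-like cells, as were 21.5% of the 16976 genes tested. The log2 fold change over the mean of the other classes was 7.02 for SLC4A4 (SE 0.43, edgeR quasi-likelihood FDR 2.0e-09) and 6.75 for SCTR (SE 0.33, edgeR FDR 3.0e-10). It was 6.28 for CFTR (SE 0.31, edgeR FDR 3.0e-10), 5.42 for KCNJ16 (SE 0.28, edgeR FDR 3.8e-10) and 5.39 for KCNH8 (SE 0.29, edgeR FDR 6.3e-10). Each gene also passed the threshold against each class on its own. The share of all genes that were higher in ductal-like cells was 15.5% against acinar-like, 16.2% against endocrine-like, 18.2% against endothelial-like, 14.7% against stellate-like and 22.4% against immune-like cells. The classes come from the same cells and animals as the values, so these p-values measure only the spread between sums. The 5 genes were also chosen as a duct set with earlier results of these data known. Their tests here, and those against PPDO below, are therefore a description and no independent support.

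For CFTR, SCTR, SLC4A4 and KCNJ16 all 5 other classes were far below duct cells. CFTR reached 30.9 and 4.70 CPM in immune-like, 25.4 and 7.92 CPM in acinar-like, 23.98 and 9.21 CPM in stellate-like, 3.89 and 4.45 CPM in endothelial-like and 3.55 and 1.52 CPM in endocrine-like cells. The library ranges of immune-like, acinar-like and stellate-like cells overlapped for CFTR, SCTR and SLC4A4, so their order is not resolved. SLC4A4 had 687.5 and 142.3 CPM in immune-like cells and its lowest primary level, 35.5 and 40.7 CPM, in endocrine-like cells. Acinar-like cells, the neighbours of duct cells in the exocrine pancreas, thus held at most 2.70% of the duct level of CFTR and at most 1.18% of that of SLC4A4, and part of this came from few cells.

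In the immune-like, stellate-like and acinar-like cells of primary pancreas 1, most of the CFTR and SLC4A4 UMIs came from few cells. The 10 immune-like cells with the most CFTR held 92.8% of the 180 CFTR UMIs of that class, and 1 of these 709 cells alone held 64. Without those 10 cells the class had 2.34 CPM, against 30.9 CPM with them. For SLC4A4 the 10 highest immune-like cells held 88.9% of 4002 UMIs, and the class had 79.9 CPM without its top cells. Stellate-like cells had 85.6% of 160 CFTR UMIs in 10 of 752 cells. Of 257 acinar-like cells, 10 held 39 of 64 CFTR UMIs and the 10 highest for SLC4A4 held 492 of its 660 UMIs, and without these top cells the class had 10.7 CPM of CFTR and 70.7 CPM of SLC4A4. Endothelial-like cells of primary pancreas 1 were less uneven for SLC4A4, with 59.2% of 1373 UMIs in the top 10 cells, and in their largest cluster 248 of 681 cells held it, with 22.2% of UMIs in the top 10. In immune-like cells of primary pancreas 2 no cell had more than 1 CFTR UMI. Doublets called by Scrublet had been removed before, and whether cells with duct RNA in other classes are doublets was not tested.

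KCNH8 was the exception, with a second site of expression in the endocrine class. Endocrine-like cells had 62.7 and 50.4 CPM of KCNH8, which was 13.2% and 9.42% of the duct level, whereas the other 4 genes there had between 0.157% and 2.07% of theirs. KCNH8 made up 58.6% and 52.5% of the UMIs of the 5 genes in endocrine-like cells but 1.94% and 1.88% in ductal-like cells. Ductal-like cells were still higher. The log2 fold change over endocrine-like cells was 2.35 (SE 0.45, edgeR FDR 4.9e-04), the smallest of the 25 contrasts of a gene with a class. At 3000 UMIs per cell, 23.3% and 16.9% of endocrine-like cells held KCNH8, against 1.43% and 2.90% of immune-like cells.

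Within the endocrine class, KCNH8 was highest in the cluster led by SST, GCG and PPY, the hormones of delta, alpha and PP cells. That cluster had 96.0 CPM (54 cells) in primary pancreas 1 and 152.4 CPM (427 cells) in primary pancreas 2. The INS-rich clusters had 64.0 CPM (37 cells) and 4.04 CPM (10 cells) in primary pancreas 1, and 55.3 CPM (1012 cells) and 30.9 CPM (763 cells) in primary pancreas 2. In primary pancreas 2 the UMIs were spread over 1332 of 2202 endocrine-like cells, and the top 10 held 4.02% of 4278. Primary pancreas 1 had only 106 UMIs in 38 of 101 endocrine-like cells, of which the top 10 held 57.5%. Without those 10 its class level was 32.1 CPM, and without the top 10 of the SST, GCG and PPY cluster that cluster had 25.03 CPM. A schwann-like cluster of primary pancreas 1, with 191 cells, had 86.5 CPM of KCNH8, which was 23.9 CPM without its top 10 cells, and only 1 such cell was found in primary pancreas 2.

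**Figure D2:**
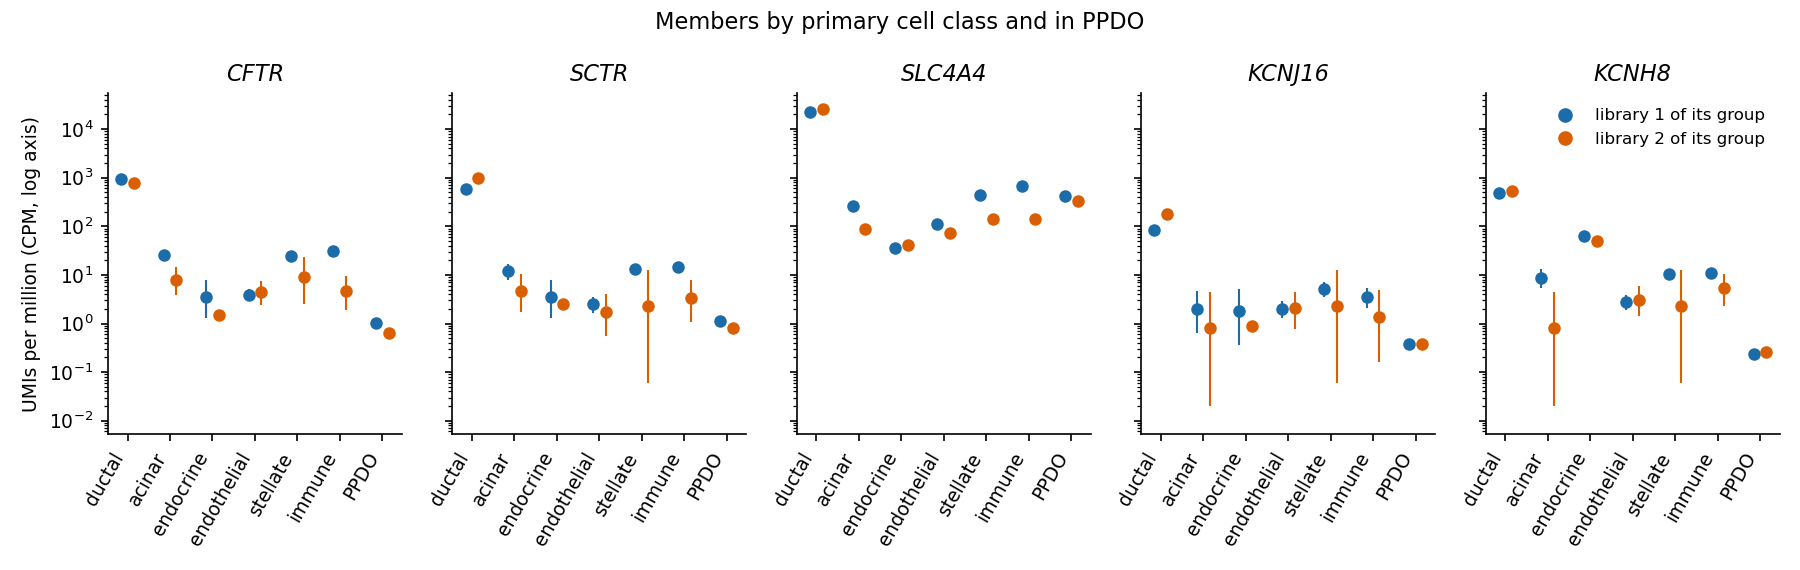
Level of each gene, in CPM on a log axis, in 6 classes of primary cells and in PPDO; blue and orange are library 1 and 2 of each group, and bars are exact Poisson 95% intervals. The ductal class is the highest in every panel, endocrine cells come next for KCNH8 at 62.7 and 50.4 CPM, and PPDO are the lowest for all genes but SLC4A4.

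The comparison with PPDO asked how far these organoid lines, past their early passages, keep RNA of the secretory genes of the duct. The paper reports CFTR protein in PPDO by staining, also in a late postnatal line past its early passages. It describes the duct marker proteins as uniform over all cells, and protein was not measured in the libraries used here. The paper also reports swelling of early-passage PPDO with forskolin and secretin. Late-passage PPDO did not swell there. Early-passage PPDO are not among the libraries used here. All 5 genes fell in PPDO, and 4 of them fell to about 1 CPM or less. CFTR had 1.04 and 0.636 CPM in PPDO 1 and 2, a mean of 0.840 ± 0.288 CPM (SD, n = 2), and the duct mean was 868.7 ± 104.7 CPM (SD, n = 2). SCTR had 1.14 and 0.793 CPM in PPDO 1 and 2. KCNJ16 had 0.372 and 0.374 CPM, and KCNH8 had 0.233 and 0.255 CPM. SLC4A4 was the one that stayed well above 0, with 418.3 and 327.0 CPM, a mean of 372.7 ± 64.6 CPM (SD, n = 2) against 24088 ± 2565 CPM (SD, n = 2). For each gene both PPDO libraries lay below both ductal-like sums, an order that 2 against 2 libraries can often give without a difference. The share of all genes with this order is not given here, and 20.9% of 23553 genes tested were lower in PPDO at FDR under 0.05.

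On the ratio of mean CPM, the duct level was 2065 times that of PPDO for KCNH8, 1034 times for CFTR, 796.2 times for SCTR, 352.9 times for KCNJ16 and 64.6 times for SLC4A4. The fitted log2 fold change of PPDO over ductal-like cells was -10.54 for KCNH8 (SE 0.21, edgeR FDR 2.7e-04), -9.57 for CFTR (SE 0.41, edgeR FDR 5.0e-04) and -9.15 for SCTR (SE 0.35, edgeR FDR 4.1e-04). It was -7.96 for KCNJ16 (SE 0.39, edgeR FDR 6.1e-04) and -5.55 for SLC4A4 (SE 0.21, edgeR FDR 4.1e-04). Of the 23553 genes tested, 20.9% were lower in PPDO by the same threshold. By p-value KCNH8 ranked 7th of these and the other 4 between 170 and 371.

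Shares of cells showed the same contrast at equal depth. Thinned to 3000 UMIs per cell, CFTR was detected in 85.9% and 82.9% of ductal-like cells, in 1.43% and 2.17% of immune-like cells and in 0.204% and 0.191% of PPDO cells. SCTR was detected in 75.2% and 88.7% of ductal-like cells and 0.340% and 0.136% of PPDO cells. KCNH8 went from 64.5% and 68.3% to 0.0113% and 0.0682%, and KCNJ16 from 21.4% and 38.3% to 0.147% and 0.109%. SLC4A4 was in 99.7% and 99.6% of ductal-like cells and still in 64.1% and 54.7% of PPDO cells, above the 21.9% and 28.3% of immune-like cells, at unthinned median depths of 6695 and 9129 UMIs in immune-like cells. Without thinning, 97.1% and 96.4% of PPDO cells held SLC4A4. Each two-sided exact permutation test over libraries gave p = 0.333, the smallest that 2 against 2 libraries allow.

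**Figure D3:**
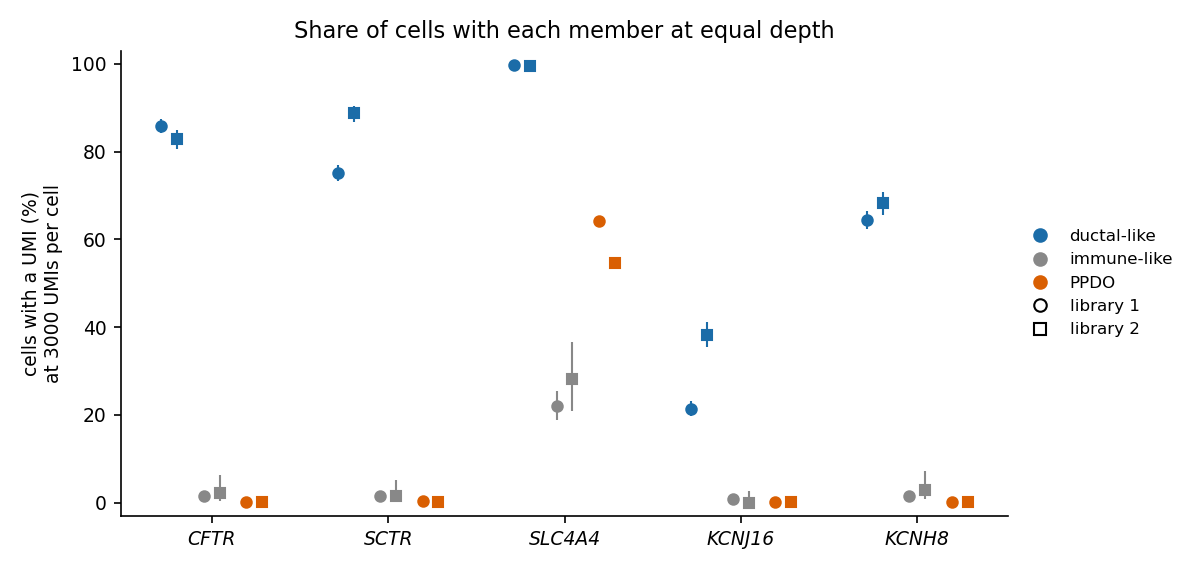
Share of cells with at least 1 UMI of each gene after all cells were thinned to 3000 UMIs, in percent; circles and squares are library 1 and 2, and bars are exact Clopper-Pearson 95% intervals. Ductal-like cells (blue) lie above PPDO (orange) for all genes, and for SLC4A4 both PPDO libraries also lie above both sums of immune-like cells (grey).

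A few PPDO cells kept CFTR or SCTR. CFTR was found in 152 of 8885 cells of PPDO 1, or 1.71% (Clopper-Pearson 95% interval 1.45 to 2.00), and in 87 of 7337 cells of PPDO 2, or 1.19%, both without thinning. Most of them held a single UMI. At least 3 UMIs were found in 21 and 12 cells, and the highest cell held 71 UMIs in PPDO 1 and 24 UMIs in PPDO 2. SCTR was found in 194 and 138 cells, with at least 3 UMIs in 23 and 14 cells and a maximum of 19 and 9 UMIs. KCNJ16 and KCNH8 were at most 4 and 6 UMIs in any PPDO cell. Cells with CFTR were deeper than cells without, with a median of 41262 against 34019 UMIs in PPDO 1 and 38084 against 34375 UMIs in PPDO 2.

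The cell with 71 CFTR UMIs had 909.2 CPM of CFTR, above the median ductal-like cell at 817.9 and 689.9 CPM in primary pancreas 1 and 2. It had 281.7 CPM of SLC4A4, a PPDO level, and no KCNJ16 or KCNH8. The cell with 24 UMIs in PPDO 2 had 678.6 CPM of CFTR and 480.7 CPM of SLC4A4. Neither barcode occurred in another library. These 2 were the only PPDO cells with at least 3 UMIs that reached 246.9 CPM of CFTR, the 10th percentile of duct cells in primary pancreas 2 and the lower of the 2 libraries. For SCTR 7 and 3 cells reached the matching limit of 139.8 CPM, and for SLC4A4 no cell reached 10759 CPM, which with 8885 and 7337 cells leaves room for at most 0.0415% and 0.0503% of cells (upper end of the exact interval).

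Cells with CFTR also held SCTR at a higher share than the rest, beside their greater depth. Of cells with CFTR, 9.87% (15 of 152) in PPDO 1 and 8.05% (7 of 87) in PPDO 2 also held SCTR, against 2.05% and 1.81% of cells without CFTR. The 15 and 7 cells with both had 486.6 and 1373 CPM of SPP1, a secreted duct marker that had 20.2 and 20.1 CPM over all PPDO cells. SPP1 was found in 9 of the 15 and 4 of the 7, and without the cell with the most SPP1 its level was 387.9 and 547.1 CPM. They had 920.7 and 511.6 CPM of SLC4A4, which is above the mean of PPDO and far under the duct level. Their KRT5, a basal keratin, was 1451 and 3502 CPM, against 5420 and 7634 CPM over all PPDO cells, while KRT15, another basal keratin, was 1106 and 1284 CPM, close to its 1130.1 and 1433 CPM over all PPDO cells. Among other duct markers, KRT7 was 1291 and 1858 CPM in the cells with both, against 388.6 and 384.2 CPM over all PPDO cells, BICC1 was 211.2 and 151.8 CPM against 69.5 and 53.7 CPM, and SOX9 was 30.6 and 33.0 CPM against 3.30 and 1.44 CPM, the last on 21 and 10 UMIs. These 3 stayed above the mean of PPDO without the cell with the most of each (for SOX9 at 26.3 and 17.5 CPM). ANXA4, at 154.4 and 79.2 CPM against 126.7 and 131.8 CPM, had no common direction. In the 50 and 23 cells with 2 or more CFTR UMIs KRT5 was 3870 and 6663 CPM, and KRT15 was 1631 and 2856 CPM, above its level over all cells, so the basal keratins had no common direction. PKHD1, the duct gene of fibrocystin, had no UMI in the 15 and 7 cells.

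Several PPDO clusters held cells with CFTR or SCTR at a share above their share of all cells. One of these clusters had 310 cells (3.49%) of PPDO 1 and 193 cells (2.63%) of PPDO 2 and was led by SPP1, KRT4, CFD, S100A1, TCN1 and WFDC2. It held 13.2% and 18.4% of the cells with CFTR and 27.3% and 17.4% of the cells with SCTR. Most positive cells lay elsewhere, and the largest PPDO cluster, with 26.8% and 24.8% of all cells, held 32.9% and 33.3% of those with CFTR. The cluster led by GPNMB and PIK3C2G, with 14.8% and 9.98% of all cells, also held more than its share. It had 27.0% and 16.1% of the cells with CFTR and 21.1% and 15.9% of those with SCTR. CFTR in the SPP1 and WFDC2 cluster was 10.7 CPM (8.86 to 12.8) and 10.5 CPM (8.13 to 13.4), against 0.670 and 0.394 CPM in the other PPDO cells. This level rested on few cells. Only 20 of 310 and 16 of 193 cells held CFTR, the top 10 had 108 of 120 and 60 of 66 of its UMIs, and without them it was 1.11 and 1.03 CPM (4.39 and 6.72 CPM without the single highest cell of each library). SCTR was 14.4 CPM (12.3 to 16.8) and 8.12 CPM (6.05 to 10.7), against 0.628 and 0.613 CPM in the other cells. It was found in 53 and 24 cells, and without the 10 cells with the most SCTR it was 5.95 and 3.27 CPM. Of the 7 and 3 PPDO cells that reached 139.8 CPM of SCTR, 6 and 0 lay in this cluster, so the libraries differed there.

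The other 3 genes stood closer to their level in the rest of the PPDO cells. SLC4A4 was 631.4 and 485.9 CPM in that cluster, the highest of the 10 PPDO clusters in both libraries but only 1.54 and 1.504 times the level of the other PPDO cells. KCNJ16 rested on 1 and 2 UMIs there and KCNH8 on 1 and 5. KCNE3, a subunit of the basolateral KCNQ1 channel and part of the duct secretion list below, was 9.88 and 4.30 CPM in the cluster and 0.452 and 0.148 CPM in the other cells. Clusters were built without all of these genes, but from the other genes of the same cells, so the values are a description and no test was made.

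Even this cluster was far from the primary duct. With its sums in place of all PPDO cells, a comparison chosen after the data were seen, all 5 genes stayed lower than in ductal-like cells, as were 21% of 17330 genes tested. The log2 fold change was -6.08 for CFTR (SE 0.27, edgeR FDR 5.1e-04), -5.75 for SCTR (SE 0.42, edgeR FDR 0.0013) and -5.13 for SLC4A4 (SE 0.30, edgeR FDR 7.8e-04). SLC4A4 in the remaining PPDO clusters ran from 247.6 to 505.0 CPM in PPDO 1 and from 177.4 to 430.8 CPM in PPDO 2. It was lowest in PPDO 2 in the cluster led by KRTDAP and SPRP, genes of epidermal differentiation, and second lowest there in PPDO 1 at 248.5 CPM.

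**Figure D4:**
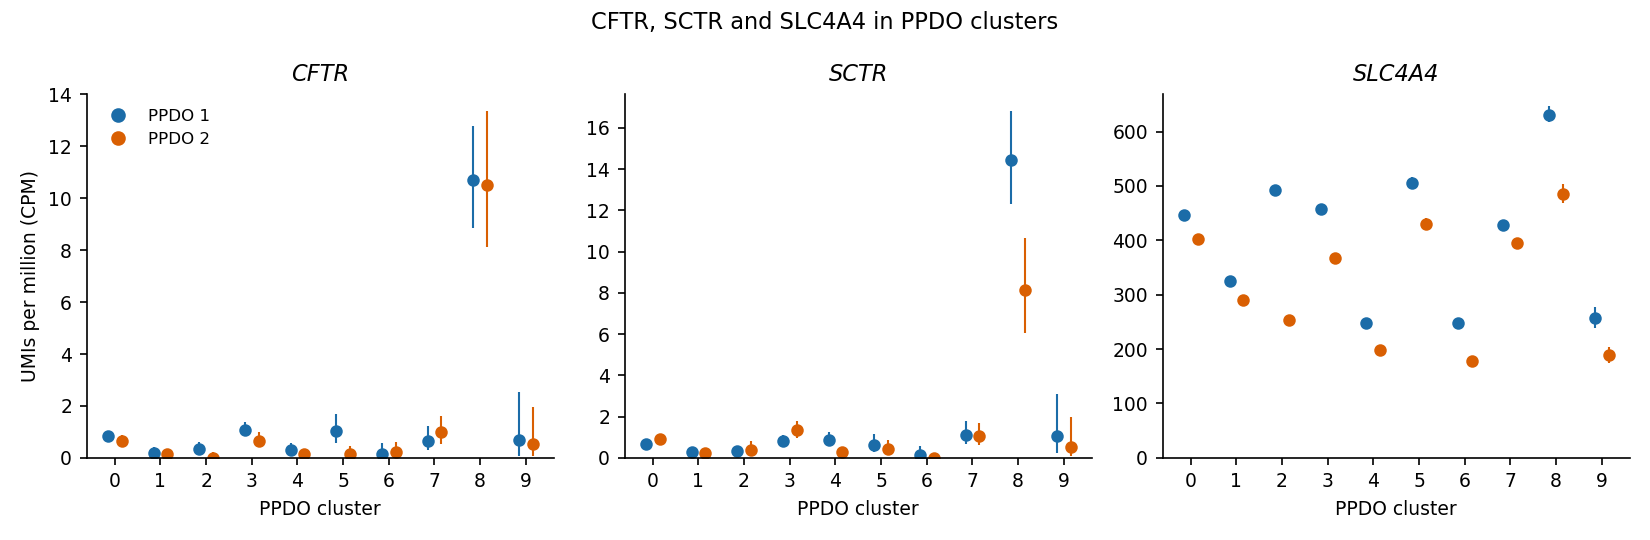
Level of CFTR, SCTR and SLC4A4, in CPM (linear axes that start at 0), in the 10 clusters of PPDO cells; blue is PPDO 1, orange is PPDO 2, and bars are exact Poisson 95% intervals. Cluster 8, led by SPP1 and WFDC2, stands out for CFTR (10.7 and 10.5 CPM, with 108 of 120 and 60 of 66 UMIs in 10 cells) and SCTR (14.4 and 8.12 CPM) in both libraries, while SLC4A4 is present in all clusters.

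Other genes of duct fluid secretion moved in both directions. Of a list of 39 genes (transporters, channels, carbonic anhydrases, pumps, receptors and kinases) 37 could be tested between PPDO and ductal-like cells, 17 were lower in PPDO, 12 were higher and 8 did not pass. Without PPDO 1 or PPDO 2 only 5 of 36 genes were higher, while 12 and 13 were lower. The calls over all genes fell too, to 2759 higher and 2320 lower of 21393 genes without PPDO 1 and to 2411 higher and 2231 lower of 21478 genes without PPDO 2. With both libraries, over all genes 20.9% were lower and 22.8% were higher, and the median log2 fold change was -0.65 over the list and 0.01 over all genes. WNK4 was not matched to a feature, and LRRC8A, with 0 UMIs in ductal-like cells, was too low to test.

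Among the 6 list genes with the lowest p-values, KCNE3 was the lowest in PPDO. It had 0.804 and 0.248 CPM in PPDO and 490.5 and 613.4 CPM in the duct (log2 fold change -9.58, SE 0.72, edgeR FDR 0.0014). AHCYL1, which encodes IRBIT, an activator of CFTR and of the cotransporter, had 48.1 and 41.5 CPM in PPDO and 879.9 and 1170 CPM in ductal-like cells (-4.04, SE 0.16, edgeR FDR 4.1e-04). ATP1B1, the beta subunit of the sodium pump, had 130.1 and 157.2 CPM against 1158 and 1090 CPM (-2.51, SE 0.21, edgeR FDR 0.0017). In each of the 3, PPDO and ductal-like libraries did not overlap, which their choice by lowest p-value makes likely beforehand.

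The other 3 of these 6 were higher in PPDO. ANO1, the calcium-activated chloride channel, had 76.5 and 71.2 CPM in PPDO but 0.366 and 0.473 CPM in ductal-like cells (7.93, SE 0.18, edgeR FDR 2.8e-04). SLC26A6, an apical chloride and bicarbonate exchanger, had 31.4 and 36.0 CPM against 0.572 and 0.197 CPM (6.78, SE 0.55, edgeR FDR 0.0016). KCNN4, a calcium-activated potassium channel, had 6.19 and 8.07 CPM against 0.183 and 0.276 CPM (5.46, SE 0.36, edgeR FDR 0.0011). PPDO thus carried RNA of an anion channel, an anion exchanger and a potassium channel that were near 0 in primary duct cells, while CFTR, SCTR and the potassium channels of the member list were near 0 in PPDO. In the SPP1 and WFDC2 cluster, ANO1 was 42.9 and 36.8 CPM, below the 77.9 and 72.1 CPM of the other PPDO cells. SLC26A6 was also below the rest there, at 16.7 and 23.6 CPM against 32.0 and 36.3 CPM, and KCNN4 was above it, at 13.0 and 11.6 CPM against 5.93 and 7.98 CPM.

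The channel partners of KCNJ16 were measured much nearer to their duct level. KCNJ15 had 64.8 and 57.3 CPM in PPDO and 128.2 and 159.3 CPM in the duct (log2 fold change -0.77, SE 0.13, edgeR FDR 0.0096). KCNJ10 had 13.2 and 12.6 CPM against 9.58 and 14.7 CPM (0.57, SE 0.20, edgeR FDR 0.082). CA2, the cytosolic carbonic anhydrase that supplies bicarbonate, had 3.87 and 7.71 CPM against 96.4 and 80.9 CPM (-3.48, SE 0.44, edgeR FDR 0.0048). CA12, a membrane-bound form, had 270.0 and 277.0 CPM against 220.4 and 232.7 CPM (0.73, SE 0.14, edgeR FDR 0.014). The fit scaled library sizes by TMM factors of 0.876 and 0.830 in PPDO and 1.08 and 1.28 in ductal-like cells. Fitted values therefore lie above the log2 ratio of the printed CPM, which matters most for small changes such as those of CA12 and KCNJ10. KCNJ10 was named here after its values were seen; it did not pass the test.

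**Figure D5:**
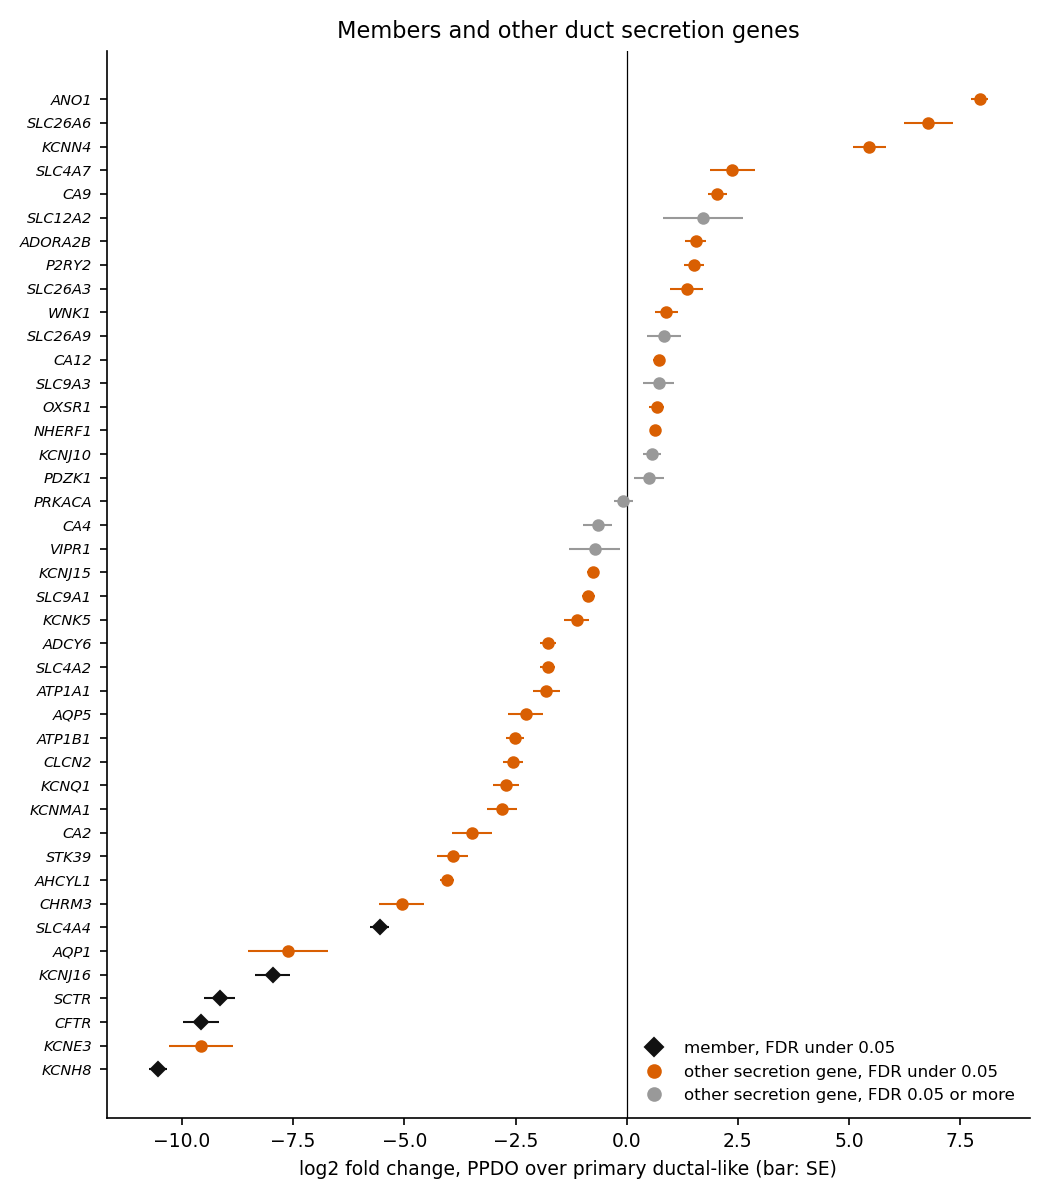
Log2 fold change of PPDO over primary ductal-like cells (bars: SE) for the 5 members (black diamonds) and 37 other duct secretion genes (orange: FDR under 0.05, grey: not). The members lie between -5.55 and -10.54, and ANO1, SLC26A6 and KCNN4 lie at the other end, from 7.93 to 5.46.

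Within the organ, 35 of the list genes could be tested between ductal-like cells and the mean of the other classes. Of these, 18 were higher in ductal-like cells, 6 were lower and 11 did not pass, with 12.7% of all genes lower. A call against the mean does not make duct cells the highest class. CA4, called higher, had 9.54 and 9.46 CPM in ductal-like cells against 62.9 and 87.6 CPM in endothelial-like cells. STK39, also called higher, had 78.7 and 120.0 CPM against 144.3 and 175.9 CPM in immune-like cells. The 6 list genes with the lowest p-values were all higher in duct cells, where 21.5% of all genes were. They were KCNJ15 (log2 fold change 5.71, SE 0.26, edgeR FDR 3.0e-10), KCNE3 (5.03, SE 0.28, edgeR FDR 6.3e-10), KCNQ1 (4.39, SE 0.24, edgeR FDR 6.4e-10), CA12 (4.35, SE 0.25, edgeR FDR 8.8e-10), AHCYL1 (3.92, SE 0.28, edgeR FDR 1.1e-08) and CA2 (3.55, SE 0.27, edgeR FDR 1.9e-08). KCNQ1, the channel that KCNE3 modulates, had 690.2 and 613.6 CPM in ductal-like cells. The 6 lower ones were ANO1, SLC26A6, AQP1, SLC12A2, SLC4A7 and CHRM3, named after their values were seen. AQP1, the water channel, was at 1.35 and 0.946 CPM in ductal-like cells and at 209.5 and 255.7 CPM in endothelial-like cells.

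The genes closest in pattern to each member were sought over 15 sums of classes, libraries and PPDO, by Pearson correlation of log2(CPM + 1) among 3603 genes with a symbol and at least 50 CPM in ductal-like cells. For CFTR these were KNG1 (0.984), PKHD1 (0.980) and VEPH1 (0.977), and for SCTR they were VEPH1 (0.985), CFTR itself (0.975) and KNG1 (0.970). SLC4A4 was closest to CCL28 (0.960), SPP1 (0.955) and CFAP221 (0.949), KCNJ16 to SLC28A3 (0.982), TMEM200A (0.977) and CCBE1 (0.975), and KCNH8 to MYOM2 (0.960), DCDC2 (0.959) and EFHC2 (0.959). The lowest correlation between members was 0.61, between SLC4A4 and KCNH8. The sums share libraries and the contrast of duct against all else, so these values are a description.

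Low-depth clusters of primary cells that took no name also held the genes. The cluster led by MT1X, CXCL14 and DEFB115, with 122 and 20 cells and a median of 1162 UMIs, had 447.7 and 508.4 CPM of CFTR and 5057 and 6089 CPM of SLC4A4, between the ductal-like cells and every named class. Leaving it out of the ductal-like class keeps 142 cells with duct RNA out of the duct values above.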

How the data were processed

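Raw UMI tables of 4 pig libraries, grouped by their titles, were used. The authors sorted live cells, prepared 10x Chromium 3' v3.1 libraries and ran Cell Ranger with a pig annotation of their own. The authors deposited unnormalized counts for each feature and barcode, and the deposited barcode and feature tables hold names (unit: other). SoupX correction by the authors came later and is not in these counts. The submitters' processing notes name the builds GRCh38 and Sscrofa11.1, and positions are from RefSeq. No sequence was printed, and the planned promoter search was not run, because no sequence was at hand.

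Features (56060) were summed to 30282 genes. Cell filters followed the study's methods, except that both PPDO libraries had the lower limit of 1000 features that the study used for 1 of its lines and not the lower limit of the other, since the labels do not assign lines to libraries (PPDO: at most 3% mitochondrial UMIs, 1000 to 9000 features; primary pancreas 1 and 2: under 8%, under 9000 features, over 400 and 800 features, and over 3000 UMIs in the second). Scrublet scores over 0.25 and 0.15 took out 89 and 154 primary cells. No doublets were removed from PPDO. Replicate numbers were taken to be the sample numbers of the methods. Scanpy 1.11.5 gave clusters (2000 variable genes, 20 components, 15 neighbours, Leiden resolution 0.5). A cluster was named by the marker list with the highest mean log2 fold among lists with at least 3 markers up, and a shallow cluster took no name unless a marker led it. Unmatched markers were KRT19, MUC1 and TSPAN8 (ductal), KRT14 and KRT17 (basal), CELA3B, CTRB1, CTRB2 and AMY2 (acinar), INSM1 and UCN3 (endocrine), CD52 (immune), S100B (schwann), MKI67 (proliferating) and WNK4 (secretion).

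UMIs were summed per class and library and tested with edgeR 4.0.16 (filterByExpr, TMM, glmQLFit, glmQLFTest, Benjamini-Hochberg at 0.05), with group alone for PPDO (4 sums) and with class and library for the organ (12 sums). FDR is the adjusted p. SE is the absolute log2 fold change divided by the square root of F. The biological coefficient of variation was 0.302 and 0.279. The fits were also tried on simulated counts that used the dispersion fitted to the data. At a log2 fold of 2, 70% of 200 changed genes were recovered in the PPDO comparison and 95.9% of 197 in the organ, with 9 and 5 false calls. Far more genes were called in the data, 10294 in the PPDO comparison. The simulations therefore do not give the rate of false calls in the data. The titles call the libraries replicates only, while by the paper the PPDO came from different lines and the primary cells from different pigs. The p-values therefore measure the spread between libraries, in which line, animal, age, passage and preparation are not separated. Intervals are at 95% and cover counting error only.

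Named genes were the 5 members, the 6 list genes with the lowest p in each comparison and, for each member, the 3 genes of most similar pattern. The members and lists were chosen with earlier results of these data known. DESeq2 1.42.0, no filter, blocks, thinning, other clusterings, kept doublets, 1 common filter and left-out libraries were the alternatives.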

Additional observations from a re-analysis of the deposited data

How the results depend on the processing

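All 5 members kept their direction and their side of the threshold in 95 of 95 values under the alternatives tried in both comparisons, with a highest FDR of 0.0072. Over the alternatives that used all PPDO cells, the log2 fold change of PPDO over ductal-like cells ran from -9.96 to -9.30 for CFTR, from -9.42 to -8.90 for SCTR, from -5.71 to -5.43 for SLC4A4, from -8.35 to -7.53 for KCNJ16 and from -10.66 to -10.18 for KCNH8. The number of genes called in that comparison was 10294 and fell to 5079 without PPDO replicate 1 and to 4642 without PPDO replicate 2, in a range of 4642 to 10666 over the 4 left-out libraries. The lone PPDO library is then assumed to vary like the primary ones. The secretion list had 29 calls, and 17 and 18 calls without PPDO replicate 1 and 2, in a range of 17 to 30. Its higher calls fell from 12 to 5 in both of these fits, and its lower calls from 17 to 12 and 13, while those over all genes fell from 5371 to 2759 and 2411 higher and from 4923 to 2320 and 2231 lower. The mean level of KCNJ16 in PPDO moved from 0.373 to 0.364 CPM when 3' extensions were left out, by more than the spread between libraries.

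With the replicate number as a block, 8273 genes, 27 list genes and all 5 members were called in the PPDO comparison. The numbers pair no animals or cultures, and the deviations of libraries with the same number had a correlation of -0.0039 over 22666 genes. In the organ the library was the block, and with no replicate block 4779 genes were called in place of 5793. DESeq2 called 6432 genes there, of which 2896 were higher in ductal-like cells, against 3642 of 5793 in edgeR. Without primary pancreas replicate 1 or 2 no degrees of freedom remained for a test in the organ, and the log2 ratio of ductal-like to other classes ran from 6.13 to 6.93 for CFTR, from 6.16 to 7.97 for SCTR, from 6.66 to 7.76 for SLC4A4, from 4.86 to 6.53 for KCNJ16 and from 5.25 to 6.47 for KCNH8, against 6.54, 7.08, 7.22, 5.70 and 5.87 with both libraries, highest without replicate 1 for each gene. Depth limits KCNJ16 most, with a median of 1 and 3 UMIs per duct cell.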
